A study of Caenorhabditis elegans with 9 samples.

Results

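The comparison described here set larvae of both O-GlcNAc cycling mutants of Caenorhabditis elegans against wild-type larvae. It took in all 9 arrays of the series: 3 of the wild type, 3 of a strain labelled ogt-1(ok430) and 3 of a strain labelled oga-1(ok1207), chosen by their titles. The mutant arrays are called ogt-1 arrays and oga-1 arrays below. The 6 mutant arrays were averaged with an equal weight for each genotype, and all 22548 probe sets other than the 77 control probe sets of the array were tested, out of 22625. Every group held L1 larvae, the first larval stage. They had hatched into buffer after bleaching of gravid adults, were collected 48 h later, and were fed OP50, the usual Escherichia coli food strain, for 3 h before Trizol extraction. The labels give no outcross history for the mutants and no source for the wild-type stock. The sampled animals of a genotype may thus all stand for 1 stock, which the labels do not state. An effect shared by both mutations cannot be told apart from a difference private to the wild-type stock, which both mutants would also show. The labels call the replicates biological without saying whether they were separate cultures, so p-values measure the spread between these arrays.

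O-GlcNAc is a sugar that cells attach to serine and threonine residues of nuclear and cytoplasmic proteins. OGT-1, the transferase, puts it on and OGA-1, the hydrolase, takes it off, so the mutants lie at opposite ends of the same cycle. The donor sugar is made from glucose, glutamine, acetyl groups and uridine nucleotide by the hexosamine pathway, and O-GlcNAc is therefore often described as a nutrient signal. In worms, null mutants of either enzyme are viable and have been studied for changed storage of fat and carbohydrate, insulin-like signalling and stress responses.

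Both deleted genes were read first. Of ogt-1, 1 of 2 probe sets read 9.32, 9.10 and 9.12 (log2 signal) in wild type, 9.97, 9.99 and 9.69 on the ogt-1 arrays and 9.18, 9.19 and 8.94 on the oga-1 arrays. The ogt-1 mutant arrays were thus above all others, not below them. The positions of the probes relative to the ok430 deletion are not known here, so this signal does not check the label. For oga-1, the brightest of 3 probe sets read 9.31, 9.54 and 9.63 in wild type, 9.53, 9.64 and 9.66 on the ogt-1 arrays and 8.63, 8.74 and 8.88 on the oga-1 arrays, which was lowest on all its arrays. In the mutant average, the change was 0.09 and 0.31 at the probe sets of ogt-1 and -0.10, -0.25 and -0.32 at those of oga-1, and none was called (limma, lowest Benjamini-Hochberg adjusted p = 0.185).

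The arrays were alike in overall signal, with medians of 7.42 to 7.47 and correlations across probe sets of 0.985 to 0.995 between genotypes and 0.992 to 0.997 within them. Mean signals were ranked over all genes, each by its brightest probe set. Defining markers of intestine, body wall muscle, pharynx and neurons lay between the 64.8th and 98.9th percentile. Those of epidermis lay between the 36.2nd and 95.9th. The yolk genes of adults lay between the 1.41st and 45.6th percentile. Oocyte markers lay between the 47th and 55.1st, and embryo markers between the 4.09th and 90th. These ranges overlap that of epidermis, so the percentiles alone do not separate larval from other tissue. Of 11 measures of array quality and of non-larval markers, none passed adjustment between the mutant average and wild type. A single measure with fully separated groups could not have passed, so the result does not show equal quality. The mean signal of 74 sperm genes came closest, at 6.31 to 6.37 in wild type, 6.39 to 6.76 in the ogt-1 mutant and 6.44 to 6.49 in the oga-1 mutant (exact permutation test of 6 against 3 arrays, two-sided p = 0.0238, the smallest that 84 arrangements allow, adjusted p = 0.262). Its part in the results below was not tested. Whole larvae were pooled, so fewer cells of a type and less RNA per cell cannot be told apart.

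Few probe sets were called in the mutant average in the reported fit, and more of them rose than fell. These calls include changes carried by 1 mutant, which are set apart further below. In the mutant average, 97 probe sets were higher than wild type (0.43% of those tested) and 54 were lower (0.239%), together 151 (0.67%) at a Benjamini-Hochberg adjusted p under 0.05 from limma. They covered 135 named genes, 85 higher and 50 lower. Counted by the brightest probe set of each gene, as in the gene lists below, 132 of 17118 genes were called (0.771%). The median size of a called change was 0.78 on the log2 scale for rises and 0.65 for falls, while the median over all tested probe sets was 0.01. Only 32 called changes exceeded 2-fold, 27 of them rises. Many more probe sets (2593) had an unadjusted p under 0.05. All 6 mutant arrays lay on the same side of the 3 wild-type arrays at 129 of the 151, against 4.63% of all probe sets; the call itself favours such separation. They did so upward at 82 (2.42% of all probe sets) and downward at 47 (2.21%). The count rested on the arrays used: it was 40 without wild type 2, 88 and 91 without oga-1 array 2 or 3, and 100 without ogt-1 array 2. With the replicate number of the labels as a block it was 331. The adjusted p of the last probe set called was 0.0472 and that of the first not called 0.051.

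Averaging can also call a gene that changed in 1 mutant alone. The mutants were therefore set against each other. Wild-type arrays do not enter this difference, though they enter its error, and it called 652 probe sets (2.89%). That count ran from 255 to 803 when 1 array was left out, and was lowest without ogt-1 array 3 (255), ogt-1 array 1 (267), oga-1 array 3 (296) and oga-1 array 2 (326), with 360 and 383 without wild type 2 or 3. Of the 151 called in the average, 110 were not called different between the mutants (73 higher and 37 lower than wild type) and 41 were. Among these 41, the change was larger in the ogt-1 mutant at 33 and in the oga-1 mutant at 8, and 5 had changes of opposite sign. With the replicate number as a block, which pairs the arrays of the mutants, 1128 probe sets were called between them, and 53 of the 151 were called different and 98 not. The mutants also differed in a sign of RNA quality, the mean gap between 3-prime and 5-prime signal of 3 control transcripts, at 1.48, 1.31 and 1.51 on the ogt-1 arrays and 1.21, 1.28 and 1.16 on the oga-1 arrays (1.28, 1.27 and 1.35 in wild type). With that gap as a covariate 9 probe sets were called between the mutants in limma, 5 of them among the 151. The gap was higher on every ogt-1 array than on every oga-1 array, so it overlaps with genotype and the fall cannot tell them apart. A missing call between mutants does not show equal change: in 101 of the 151 the smaller of both changes was at least 0.5 times the larger.

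**Figure D1:**
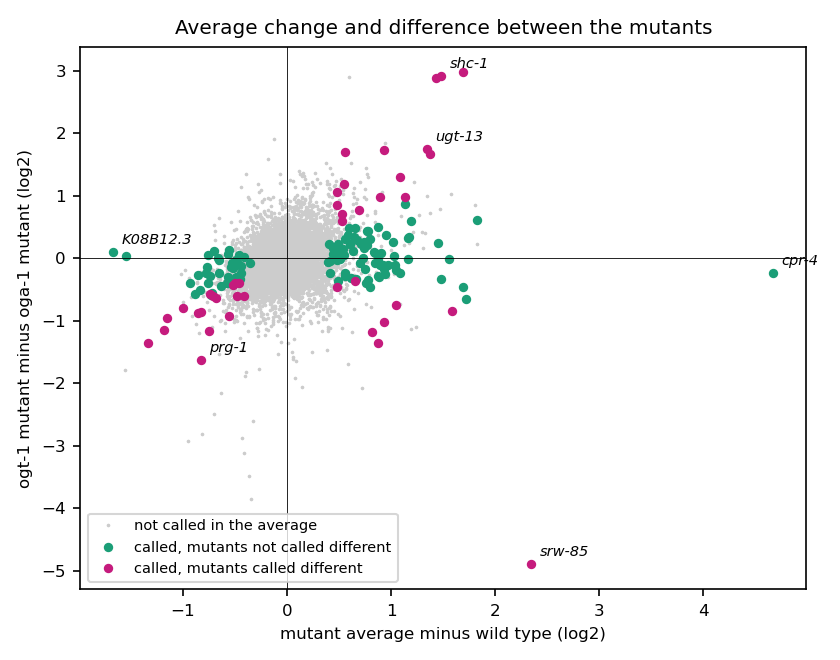
Each probe set is placed by its change in the mutant average against wild type (x axis, log2) and by the ogt-1 mutant minus the oga-1 mutant (y axis, log2), with grey points not called in the average, green points called without a called difference between mutants and magenta points called with one. cpr-4 stands alone at the right near 0 on the y axis, while srw-85 lies at 2.35 and -4.90.

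The largest shared change was in cpr-4, which encodes a secreted cathepsin B-like cysteine protease. Its signal was 8.70, 8.16 and 7.96 in wild type, 12.75, 12.75 and 12.97 on the ogt-1 arrays and 13.21, 12.85 and 13.12 on the oga-1 arrays. All 6 mutant arrays were far above every wild-type array, and those of the mutants overlapped each other. The average rise was 4.67 ± 0.15 (SE, n = 3 arrays per genotype), or 25.5-fold, with a limma adjusted p of 8.58e-07 over all probe sets. The ogt-1 mutant minus the oga-1 mutant was -0.23, with a 95% interval of -0.63 to 0.16. The rise ranged from 4.51 to 4.89 when each array was left out in turn. Of 8 cathepsin B-like cpr genes measured, only cpr-4 was called, beside 0.771% of all genes, and the other changes ran from -0.70 to 0.01. None of the 6 measured genes within 3 places of it on chromosome V was called (-0.17 to 0.25).

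Of the 12 genes with the largest shared rise that were named, 4 were chemoreceptors. The naming rule asked for a mean at or above 7.45 on the higher side. srx-68, str-19, srh-72 and, outside the class, pugs-11 met it through the mutant arrays alone. The number of receptors among the 12 is therefore no measure of the class. These seven-transmembrane receptors of sensory neurons detect odours and tastes, and each is usually made in a few cells. srx-68 read 6.83, 7.38 and 7.67 in wild type, 8.95, 8.87 and 8.72 on the ogt-1 arrays and between 8.58 and 9.01 on the oga-1 arrays. srx-56 read 8.07, 8.08 and 8.45 in wild type against 10.11, 9.73 and 9.50 and 9.50, 9.47 and 9.62 in the ogt-1 and oga-1 mutants. In both genes every mutant array was above every wild-type array. The average rise was 1.56 ± 0.17 for srx-68 and 1.45 ± 0.13 for srx-56 (limma adjusted p = 0.004 and 0.00174). str-19 rose by 1.48 ± 0.16, from 5.72, 5.98 and 6.58 in wild type to between 7.35 and 7.90 on the 6 mutant arrays. srh-72 rose by 1.04 ± 0.13, from between 6.63 and 6.82 to between 7.52 and 8.15, and its call was lost without wild type 2 (limma adjusted p = 0.0567). The other 3 kept their call without each array in turn. Beside them stood gpa-18, a G protein alpha subunit, the class of protein through which such receptors signal. Its wild-type arrays read 7.60, 7.65 and 8.06, those of the ogt-1 mutant 8.95, 8.79 and 9.05, and those of the oga-1 mutant 8.94, 8.82 and 9.05. The groups did not overlap, and the rise of 1.16 ± 0.11 (2.24-fold, limma adjusted p = 0.00221) was matched by 0.93 ± 0.11 at its other probe set, also called.

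Across the receptor families of the sr and str genes, 26 of 1276 measured receptors rose and 7 fell. That was 2.04% higher and 0.549% lower, beside 0.485% and 0.286% over all 17118 genes with 1 probe set each, and 0.36% and 0.265% of the genes outside the families. The median change was 0.05 for the receptors and 0.01 for all genes, so most receptors moved little. Groups did not overlap upward in 90 receptors (7.05%, against 2.55% of all genes) and downward in 29 (2.27%, against 2.26%). Receptors are dim on whole-animal arrays: 1235 of 1276 had a mean signal below the median gene. Among those, 1.62% rose, against 0.231% of other genes that dim, although probe affinity also enters such a signal. Rises were found in the srx (5), str (5), srh (4), srw (4), srd (3), sri (2), sra, srab and sru families, and the falls were single members of srb, sre, sri, srt, sru, srw and str. By the smallest p, the leading rises were srw-85, srx-56, srd-27 (0.66 ± 0.06, limma adjusted p = 0.00221) and srh-188 (0.73 ± 0.08, adjusted p = 0.00368). Not all were shared: srw-85 changed by 4.80 in the oga-1 mutant and -0.11 in the ogt-1 mutant. srd-27 rose in both but was called different between the mutants (limma adjusted p = 0.0343). Among all called receptors, rises and falls together, 5 were called different between the mutants. srh-188 read 6.55, 6.47 and 6.50 in wild type, 7.31, 7.15 and 7.25 on the ogt-1 arrays and 7.14, 7.18 and 7.39 on the oga-1 arrays, the same rise in both. Without wild type 2 the receptors called fell to 9 higher (0.705%, against 0.101% of other genes) and 0 lower in limma. No test was made over the family as a whole.

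Some single genes of sensory signalling outside the receptor families were also called, higher or lower. Of 34 guanylyl cyclases, a group picked after its values were seen, 1 rose and 2 fell, beside 0.485% and 0.286% of all genes. gcy-6 rose by 0.48 ± 0.08, and gcy-7 and gcy-4 changed by -0.70 ± 0.11 and -0.41 ± 0.07 (limma adjusted p = 0.0293, 0.0181 and 0.0251). These encode receptor-type cyclases of the salt-sensing ASE neurons, gcy-6 and gcy-7 in the left cell and gcy-4 in the right. The calls were lost without 8 (gcy-6), 2 (gcy-7) and 7 (gcy-4) of the 9 arrays, each time including wild type 2 (limma adjusted p = 0.18, 0.102 and 0.0997). gcy-7 was below wild type by a like amount in both mutants, with changes of -0.64 and -0.76. Of 22 G protein alpha subunits only gpa-18 was called. A few called neural genes were also picked after their values were seen. hen-1, a secreted protein needed for sensory integration, changed by 0.88 ± 0.14. rdl-1, a ligand-gated chloride channel subunit, changed by 0.84 ± 0.10, and npr-3, a neuropeptide receptor, by 0.55 ± 0.08. Without wild type 2 the calls of hen-1 and npr-3 were lost (limma adjusted p = 0.102 and 0.104), as they were without 4 other arrays for hen-1 and without wild type 3 for npr-3. None of 30 pan-neuronal markers was called, with a median of 0.03, and none of 83 neuropeptide genes, with a median of -0.02.

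Nuclear hormone receptors, ligand-regulated transcription factors that are expanded in nematodes, had 3 members called higher and none lower among 254. nhr-158 read 9.43, 9.38 and 9.59 in wild type, 10.42, 10.26 and 10.63 on the ogt-1 arrays and 10.64, 10.48 and 10.89 on the oga-1 arrays. It rose by 1.09 ± 0.11 (2.12-fold, limma adjusted p = 0.00338) and its mutant arrays were all higher. nhr-159, the next gene on chromosome V, rose by 0.88 ± 0.11, and nhr-167 on the X rose by 1.16 ± 0.10. The call of nhr-159 was lost without wild type 2 (limma adjusted p = 0.0567). At 1.18%, the share of the family called higher stood beside 0.485% of all genes, and its median was -0.01.

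Insulin-like peptides are ligands of the DAF-2 receptor, whose pathway sets growth and larval arrest by food. Of 24 measured, ins-3 and ins-4 rose and none fell, beside 0.485% of all genes called higher. ins-3 read 6.02, 6.50 and 6.42 in wild type, 7.33, 7.62 and 7.39 on the ogt-1 arrays and 7.21, 7.08 and 6.93 on the oga-1 arrays. ins-4 read 6.13, 5.83 and 6.15, then 6.77, 6.90 and 7.20, then 7.29, 6.74 and 7.13 in the same order. Both were higher on all 6 mutant arrays, by 0.95 ± 0.12 and 0.97 ± 0.14 (limma adjusted p = 0.00696 and 0.0152). The call of ins-4 was lost without wild type 2 (limma adjusted p = 0.114) and without oga-1 mutant 3 (0.0505). They are neighbours on chromosome II. The median of the 24 was 0.10, near equal in the ogt-1 mutant (0.10) and the oga-1 mutant (0.11). Downstream, 1 of 26 genes of the insulin and DAF-16 signalling chain was called, shc-1, and that change belonged to the ogt-1 mutant. Of 24 DAF-16 targets 1 rose, dod-24.

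The remaining genes of largest shared rise had no common class. nssp-55 read 7.62, 7.83 and 7.71 in wild type, 8.90, 9.21 and 9.24 on the ogt-1 arrays and 9.50, 9.68 and 10.12 on the oga-1 arrays. All mutant arrays were higher, and the oga-1 mutant was the higher of the pair. Its rise was 1.72 ± 0.14 (3.3-fold, limma adjusted p = 6.07e-04). pcdr-1 read 8.78, 8.81 and 8.94 against 9.97, 9.82 and 9.86 on the ogt-1 arrays and 9.73, 9.79 and 10.02 on the oga-1 arrays, a rise of 1.02 ± 0.08 (2.03-fold, adjusted p = 7.61e-04). Its other probe set changed by 0.66 ± 0.13 and was not called (limma adjusted p = 0.0581). F38B6.6 rose by 1.04 ± 0.11, from between 8.69 and 9.15 to between 9.82 and 10.24. The most variable was pugs-11, with 7.85, 7.26 and 7.20 in wild type, 9.82, 10.20 and 8.70 on the ogt-1 arrays and 8.91, 8.81 and 9.15 on the oga-1 arrays. Its rise of 1.82 ± 0.28 did not keep its call without wild type 2 or 3, ogt-1 array 1 or an array of the oga-1 strain (limma adjusted p = 0.0543 to 0.144). dod-24, a gene regulated by DAF-16 and by pathogens, rose by 1.19 ± 0.22 at a probe set marked by the manufacturer's suffix as able to catch related transcripts. Its call was lost without any array other than wild type 1 (limma adjusted p = 0.0535 to 0.226).

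**Figure D2:**
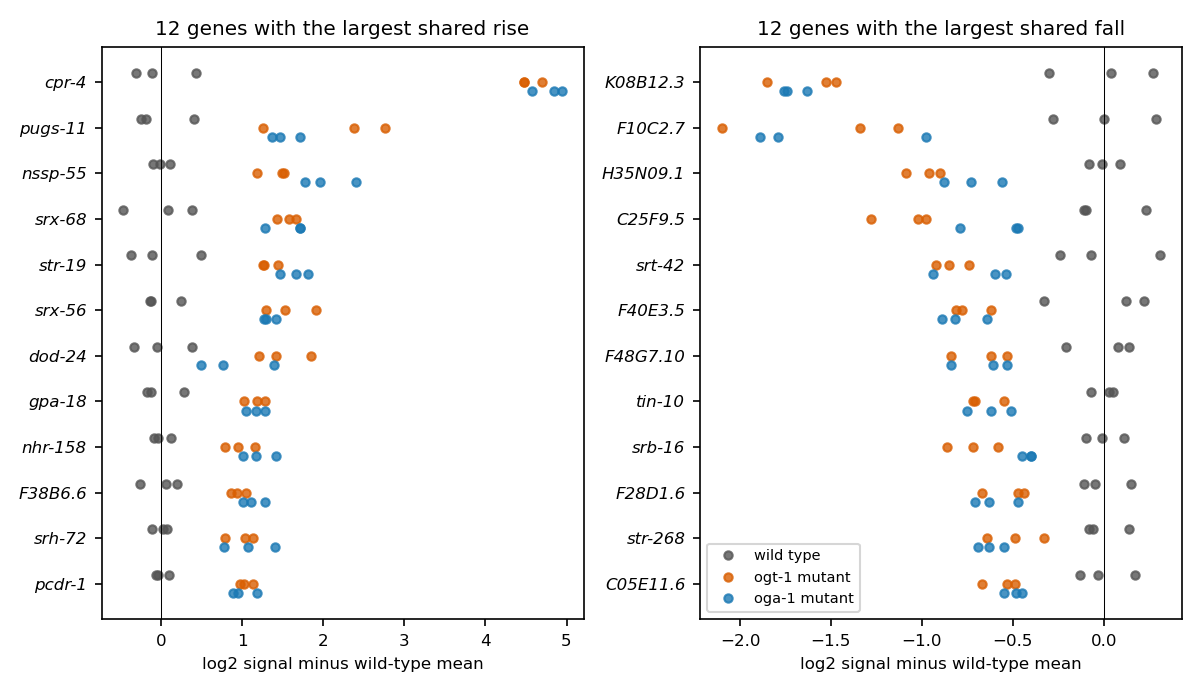
Log2 signal of each array minus the wild-type mean (x axis) for the 12 genes with the largest shared rise (left) and the 12 with the largest shared fall (right), with grey points for wild type, orange for the ogt-1 mutant and blue for the oga-1 mutant, 3 arrays each. cpr-4 rose by more than 4 on every mutant array, and in all 24 genes the mutant points lie on 1 side of the wild-type points, as the rule for naming them required.

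Falls were smaller. K08B12.3, an uncharacterised gene on chromosome V, read 10.59, 10.36 and 10.02 in wild type, 8.85, 8.79 and 8.47 on the ogt-1 arrays and 8.69, 8.56 and 8.58 on the oga-1 arrays. Every mutant array was more than 1 log2 unit below every wild-type array. Its change was -1.67 ± 0.13, 3.18-fold lower (limma adjusted p = 5.45e-04), and none of its 6 measured neighbours was called (-0.25 to 0.20). H35N09.1 read 9.46, 9.53 and 9.63 in wild type, 8.64, 8.58 and 8.45 on the ogt-1 arrays and 8.66, 8.81 and 8.98 on the oga-1 arrays, a change of -0.85 ± 0.09. These were the only 2 of the 12 falls that kept their call without each array in turn. F10C2.7 was nearly as large at -1.54 ± 0.25, with wild-type arrays at 9.87, 9.58 and 9.30 and mutant arrays between 7.48 and 8.60. It lost its call without wild type 1 or 2 or oga-1 array 1 or 3 (limma adjusted p = 0.0595 to 0.15).

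tin-10, a small chaperone of protein import into mitochondria, read 11.24, 11.26 and 11.14 in wild type, 10.66, 10.49 and 10.50 on the ogt-1 arrays and 10.70, 10.46 and 10.59 on the oga-1 arrays. The average change was -0.65 ± 0.08, 1.57-fold lower (limma adjusted p = 0.00556), and the mutants differed by -0.03 (95% interval -0.24 to 0.17). The chemoreceptors srt-42, srb-16 and str-268 changed by -0.77 ± 0.13, -0.57 ± 0.08 and -0.56 ± 0.09. C25F9.5 changed by -0.84 ± 0.11 and F40E3.5 by -0.76 ± 0.12, both at marked probe sets, as was tin-10. F48G7.10, F28D1.6 and C05E11.6 changed by -0.66 ± 0.11, -0.56 ± 0.09 and -0.53 ± 0.08. All 6 mutant arrays were below wild type in each of these. C25F9.5, srt-42, F48G7.10 and str-268 met the signal limit of the naming rule through the wild-type arrays alone. The calls of tin-10 (limma adjusted p = 0.0567), srb-16 (0.111) and C25F9.5 (0.0653) were lost without wild type 2 alone. srt-42 lost its call whichever of the 9 arrays was left out (0.0548 to 0.0808). F40E3.5 lost it without wild type 1 or 2, ogt-1 array 1 or 2, or oga-1 array 1 or 2 (limma adjusted p = 0.057 to 0.151), and F48G7.10 without wild type 2 or 3, ogt-1 array 1 or 2, or each array of the oga-1 strain (0.0532 to 0.188). F28D1.6 lost it without any wild-type array, ogt-1 array 2, or oga-1 array 1 or 3 (limma adjusted p = 0.0538 to 0.0904). str-268 lost it without any wild-type array, ogt-1 array 1, or oga-1 array 1 or 2 (0.051 to 0.102), and C05E11.6 without wild type 1 or 2 or oga-1 array 2 or 3 (0.0575 to 0.124).

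Some calls in the average came from 1 mutant. srw-85, a chemoreceptor gene, read 5.13, 4.86 and 4.90 in wild type, 4.77, 5.01 and 4.79 on the ogt-1 arrays and 9.56, 9.84 and 9.88 on the oga-1 arrays. Only the oga-1 mutant stood apart: its average change of 2.35 ± 0.10 joined -0.11 with ogt-1 mutated to 4.80 with oga-1 mutated. Conversely, shc-1, an adaptor protein linked to insulin-like and stress signalling, read 7.86, 7.18 and 7.33 in wild type, 10.22, 10.36 and 10.60 on the ogt-1 arrays and 7.15, 7.64 and 7.64 on the oga-1 arrays. Its 2.94 in the ogt-1 mutant stood beside 0.02 in the oga-1 mutant. Another marked probe set of shc-1 gave the same pattern and was called at 1.43 ± 0.16. The unmarked probe set gave 0.74 ± 0.22, not called (limma adjusted p = 0.199). K08E7.5 changed by 1.80 on the ogt-1 arrays and 0.07 on the oga-1 arrays at a marked probe set. Its other probe set was not called in the average (0.56 ± 0.11, limma adjusted p = 0.066). ugt-13, a glucuronosyltransferase of the detoxification type, read 6.43, 6.33 and 6.58 in wild type, 8.94, 8.94 and 8.12 on the ogt-1 arrays and 6.99, 6.89 and 6.87 on the oga-1 arrays. Both mutants were above wild type, the ogt-1 mutant by far the more, and the average call was lost without wild type 2 (limma adjusted p = 0.0567).

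Trehalase and hexokinase belonged to the same kind. Of 37 genes of glycolysis, gluconeogenesis and trehalose use, 2 rose and none fell, beside 0.485% of all genes called higher. tre-2, which splits the storage sugar trehalose, changed by 0.55 ± 0.09 on average, from 1.14 on the ogt-1 arrays and -0.05 on the oga-1 arrays. Its probe set is marked. hxk-1, which phosphorylates glucose, changed by 0.48 ± 0.08, from 0.91 and 0.06. For both, only the ogt-1 strain had all its arrays above wild type, and their calls in the average were lost without most arrays: tre-2 without any but ogt-1 mutant 1 and 3 (limma adjusted p = 0.0595 to 0.143), hxk-1 without any but oga-1 mutant 3 (0.0594 to 0.109). prg-1, a Piwi protein that binds small RNAs of the germline, was the sole call among 63 germ granule and small RNA genes. Of all genes 0.286% were called lower. The probe set of prg-1 is marked. It read 11.80, 11.68 and 11.47 in wild type, 10.01, 10.08 and 9.93 on the ogt-1 arrays and 11.83, 11.66 and 11.43 on the oga-1 arrays. The oga-1 mutant overlapped wild type, and the average of -0.83 ± 0.10 lost its call without wild type 2 (limma adjusted p = 0.06). Further genes, picked after their values were seen, fell in both mutants but more in the ogt-1 mutant. lep-5, a noncoding RNA of developmental timing, changed by -1.63 on the ogt-1 arrays and -0.67 on the oga-1 arrays. hyl-1, a ceramide synthase, changed by -1.03 and -0.46, and fmo-1, a flavin monooxygenase, by -1.26 and -0.40 at its unmarked probe set. All 3 were called different between the mutants and kept the call in the average without each array in turn.

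Most of the 43 gene lists held no call in the average. Cuticle collagens, which form the exoskeleton made at each moult, had the highest median at 0.16 and 131 of 146 members above 0, with none called. That median joined 0.02 in the ogt-1 mutant to 0.29 in the oga-1 mutant. At the other end, 34 intestine markers and 37 genes of fatty acid synthesis and desaturation each had a median of -0.16. In the first list only cpr-4 was called, upward, beside 0.485% of all genes called higher, and 28 of 34 were below 0. In the second, 30 of 37 were below 0 and none was called. Both medians were lower in the ogt-1 mutant (-0.22 and -0.20) than in the oga-1 mutant (-0.07 and -0.11). Differences between the mutants were not tested for the lists.

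No member was called among 33 genes of fatty acid breakdown, 38 of lipases and lipid transport, 61 of the respiratory chain and citric acid cycle, 63 cytoplasmic ribosomal proteins, 33 proteasome subunits, 21 heat shock proteins, 22 genes of the unfolded protein response, 45 glutathione S-transferases, 35 histones, 48 cell cycle genes, 52 of amino acid metabolism, 80 hedgehog-related genes, 36 astacin proteases or 103 BTB and MATH genes. Their medians ran from -0.11 to 0.08. The member of smallest p in fat breakdown was acs-2, an acyl-CoA synthetase, at 0.85 ± 0.19. Its arrays read 9.93, 9.30 and 9.13 in wild type, 10.69, 10.57 and 10.75 on the ogt-1 arrays and 10.36, 9.84 and 9.61 on the oga-1 arrays, where the oga-1 mutant overlapped wild type. Further lists held a single call, beside 0.485% of all genes called higher and 0.286% called lower. A single call is no result about its list. Of 106 innate immune effectors 1 rose, dod-24 again. Of 220 C-type lectins 1 fell, clec-31 (-0.74 ± 0.13), and of 310 F-box proteins 1 fell, fbxa-166 (-0.74 ± 0.13). Of 73 cytochrome P450 genes 1 rose, cyp-34A1 (0.49 ± 0.09), and of 64 glucuronosyltransferases 1 rose, ugt-13. The calls of clec-31, fbxa-166 and cyp-34A1 were each lost without 7 of the 9 arrays, wild type 2 among them (limma adjusted p = 0.225, 0.215 and 0.188). Of 19 pharynx markers only pqn-75 was called, at -0.57 ± 0.10. It lost the call whichever of the 9 arrays was left out (limma adjusted p = 0.0535 to 0.23). The 8 measured genes of O-GlcNAc cycling and hexosamine synthesis held no call, with a median of -0.06. The 26 genes known from L1 arrest and feeding held none, with a median of -0.05.

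**Figure D3:**
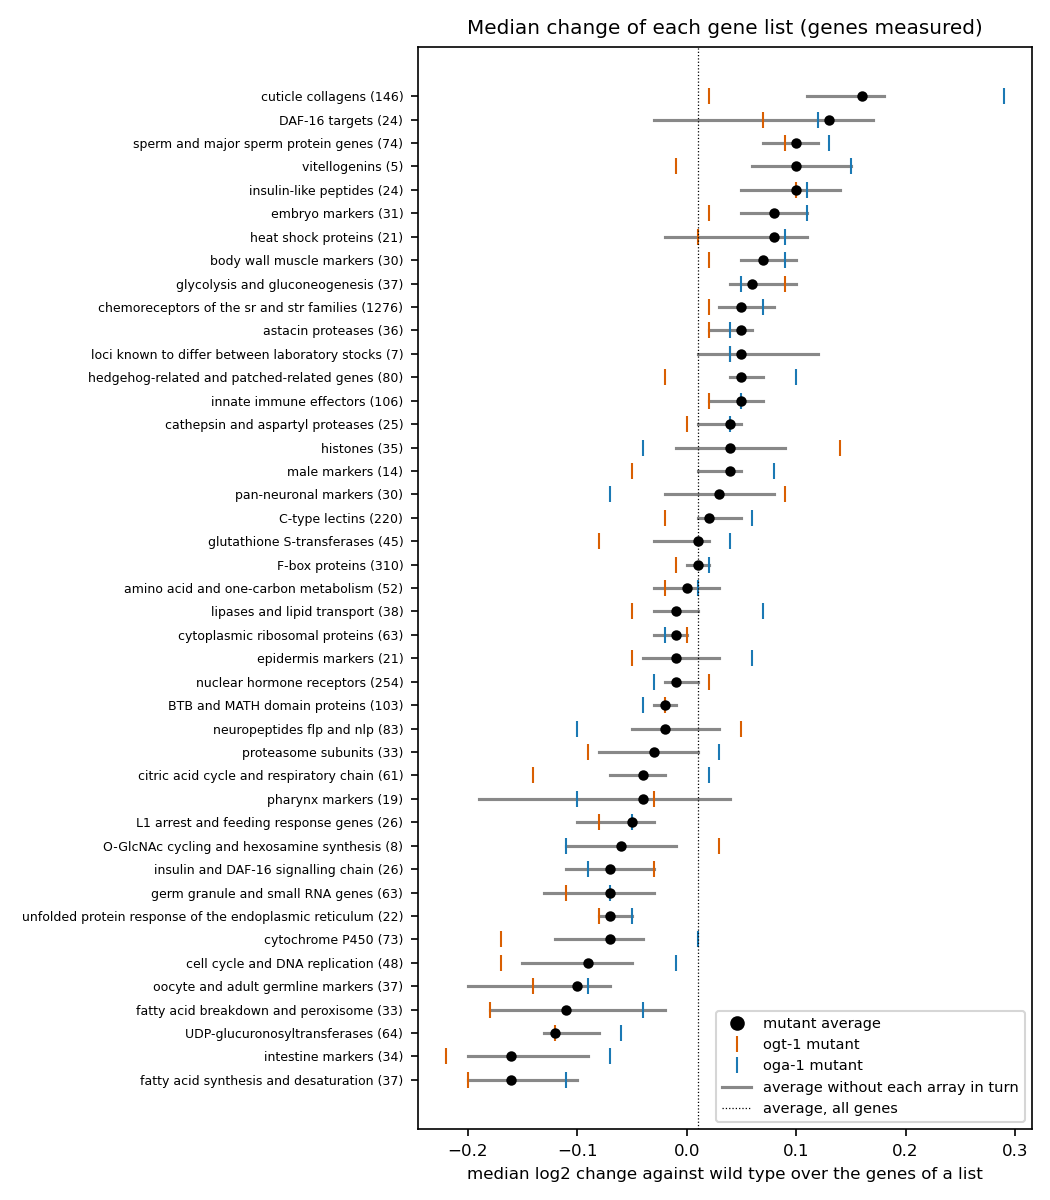
Median log2 change against wild type (x axis) for each gene list (y axis, number of genes measured in brackets), with black points for the mutant average, orange and blue ticks for the ogt-1 and oga-1 mutants and grey bars for the range of the average when each array is left out in turn. All medians lie between -0.16 and 0.16 for the average, and the dotted line marks 0.01, the median of all genes.

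Genes called higher were unevenly placed among chromosomes. Chromosome V held 25.3% of the measured genes and 42.9% of those called higher (36 of 84 placed genes), but 28% of those called lower. Part of this count is receptors, of which 884 of 1276 lie there and 19 were called higher there (2.15%). Receptors on other chromosomes were called higher at 1.79%, 7 of 392. For genes outside the families, 0.495% were called higher on chromosome V and 0.332% elsewhere. Without wild type 2, 13 of 25 placed genes called higher lay on chromosome V (52%).

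**Figure D4:**
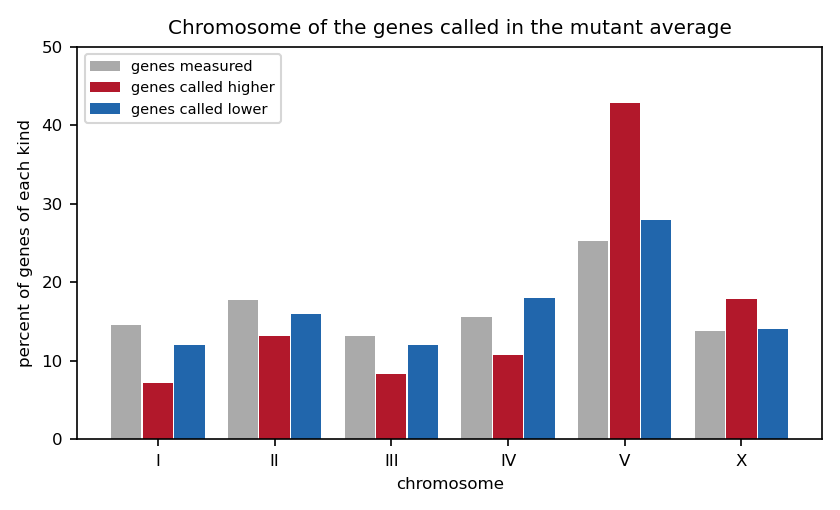
Percent of genes (y axis) on each chromosome (x axis) among all genes measured (grey), genes called higher in the mutant average (red) and genes called lower (blue). Chromosome V holds 25.3% of the grey genes, 42.9% of the red and 28% of the blue.

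Some genes called higher lay beside each other. Of 80 with a place in the order of protein-coding genes of the RefSeq annotation, 16 (20%) had another gene called higher within 3 places, as did 2.24% of all 16179 measured genes in that order. None of 47 genes called lower had a neighbour called lower, beside 1.42% of measured genes. The 16 formed 7 runs. The longest held srx-68, srx-67, srx-66 and srx-64 on chromosome V, which changed by 1.56, 0.94, 0.93 and 0.56. Of these only srx-66 was called different between the mutants (1.44 in the oga-1 mutant, 0.42 in the ogt-1 mutant). srx-65, between srx-66 and srx-64, changed by 0.03 and was not called. On chromosome V the other runs were nhr-158 with nhr-159, str-19 with str-43 and srw-17 with cyp-34A1. Chromosome II held ins-3 with ins-4 and oig-8 with sra-26, and chromosome I cutl-20 with shc-1. Both genes of this last pair were called different between the mutants. cutl-20 changed by 1.38 on the ogt-1 arrays and 0.40 on the oga-1 arrays, and shc-1 by 2.94 and 0.02. Several of the runs hold sequence relatives, and signal shared through similar probes was not tested. Without wild type 2, 2 of 24 genes called higher had such a neighbour (8.33%). With both mutants treated as 1 group, 8 of 31 had one (25.8%).

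Loci known to differ between laboratory stocks of the reference strain or from wild isolates were read for a trace of the wild-type stock. None of 7 measured was called in the average. fln-2, a filamin, changed by -0.21 ± 0.09, and all 6 mutant arrays were below all 3 wild-type arrays. alh-2, glb-5, zeel-1, nurf-1, npr-1 and nath-10 changed by 0.15, 0.12, 0.11, 0.05, -0.08 and 0.03. These are expression levels, and the known variants at such loci often alter the protein or its reading frame rather than its RNA level, so the readings do not tell which alleles the stocks carried. A group difference that both mutants share therefore cannot be assigned here to the O-GlcNAc cycle or to the stock. The comparisons of each mutant with wild type share the same 3 wild-type arrays, so a wild-type array with an odd reading moves both alike.

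The number of calls leaned most on wild type 2. Without wild type 2, only 40 probe sets were called, 32 higher and 8 lower, and all 40 were among the 151. Without wild type 1 there were 171 and without wild type 3 there were 121. Those 40 were also the only ones called without each array in turn. They included cpr-4, nssp-55, srx-68, str-19, srx-56, gpa-18, nhr-158, nhr-167, F38B6.6, pcdr-1, ins-3, srd-27, srh-188, K08B12.3 and H35N09.1. When all 6 mutant arrays were treated as 1 group, so that differences between the mutants counted as error, 49 probe sets were called, 38 higher and 11 lower. Leaving out the 3 arrays that stood apart (wild type 1 and oga-1 mutant 3 on the second principal component, ogt-1 mutant 1 in its hybridisation spikes), an alternative added after the data were seen, left 69.

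**Figure D5:**
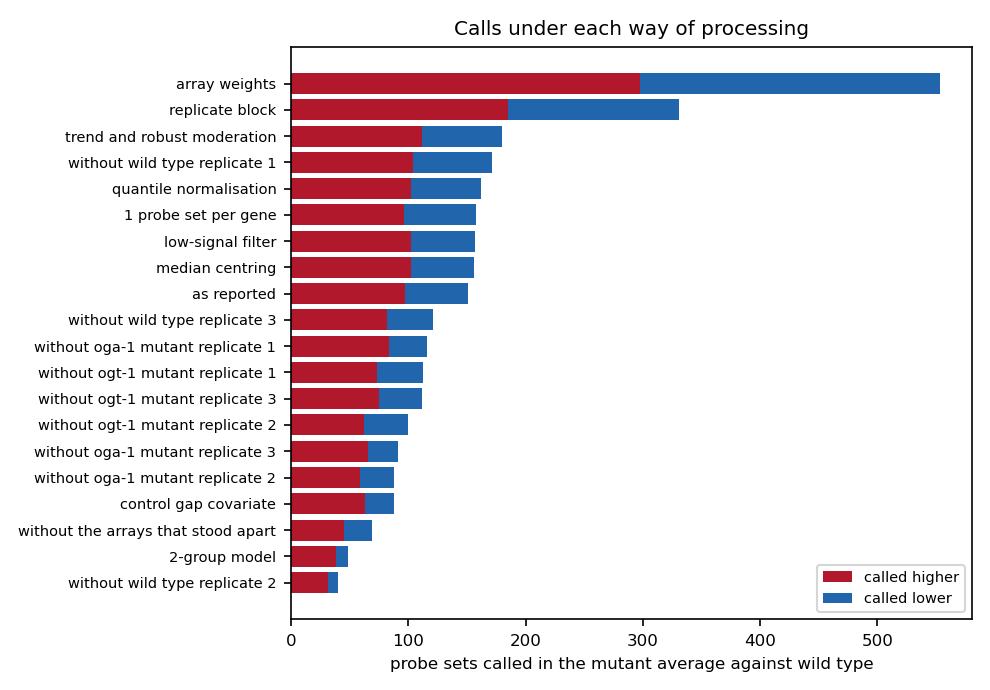
Number of probe sets called in the mutant average against wild type (x axis), split into higher (red) and lower (blue), for the reported fit and each alternative (y axis). The count runs from 40 without wild type replicate 2 to 553 with array weights, and rises outnumber falls in every bar.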

How the data were processed

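Total RNA (4 ug) of fed L1 larvae was labelled with biotin and hybridised to Affymetrix arrays, per the labels' protocols. The deposited values, 1 per probe set and array, were taken as log2 signals from their range (3.74 to 14.90), because no source used here states the log base, the scaling or a filter. Per the submitters' processing notes, MAS5, RMA and Partek were used, with no role or order stated. No detection calls or depth go with the values, so the number of arrays limits the precision. The values were not normalised again.

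With R 4.3.3 and limma 3.58.1, a model with a coefficient per genotype was fitted to all 9 arrays, and the mean of both mutant coefficients (weight 0.5 each) minus wild type was tested with moderated errors (6 residual and 3.92 prior degrees of freedom). The ogt-1 minus oga-1 contrast was taken from the same fit. Benjamini-Hochberg adjustment ran over all 22548 probe sets, with 0.05 as the threshold. In a test on simulated data of this comparison and number of probe sets, 67% of changes of 0.5, 93.5% of 1 and 99% of 2 (log2) were recovered, and 5.29% of the calls were false. The simulated noise was independent between arrays, and each change was the same in both mutants. Deviations shared by replicate number and differences between the mutants were absent, so these shares may not hold for the real calls.

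Gene symbols came from the platform annotation: 20766 tested probe sets had 1 symbol (17118 genes), 887 several and 895 none. RefSeq's WBcel235 gene table, used for names, chromosomes and gene order only, matched 20701. Of the tested probe sets, 6711 carry a suffix marking possible cross-hybridisation. They include both probe sets of ogt-1, the brightest of oga-1 and those of sdha-2, fln-2, nurf-1 and nath-10. A fold is printed only where both group means were at or above 7.45, the median over probe sets. Errors are standard errors unless stated.

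Named genes were called, had all 6 mutant arrays on 1 side of wild type, changes of the same sign with the smaller at least 0.5 times the larger, and a higher side at or above the median. The 12 largest rises and 12 largest falls were taken, with the deleted genes, the 4 largest differences between mutants among the called, up to 4 called members of each list (otherwise the member of smallest p) and the stock loci. A list counts each gene by the probe set of highest mean. The members and the 43 lists were chosen with earlier results of these data known. Members of 2 lists (histones and chemoreceptors) were corrected after the data were seen, because their name patterns caught unrelated genes. Alternatives were quantile normalisation, median centring, a filter at the 25th percentile of mean signal, 1 probe set per gene, a 2-group model, trend and robust moderation, array weights, the control 3-prime to 5-prime gap as a covariate, the replicate number as a block, and leaving out each array. The replicate numbers come from the labels. Deviations from the group means correlated at 0.11 to 0.32 in the 3 same-number pairs of the mutants, all above the 0.1 asked for, so the blocked count is given beside the contrast between the mutants. Pairs with wild type ran from 0.01 to 0.30 and did not all pass.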

Additional observations from a re-analysis of the deposited data

Results flagged for a closer look

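The difference between the mutants (ogt-1 mutant minus oga-1 mutant, log2) passed the limma threshold at 17 probe sets of named genes. With the control 3-prime to 5-prime gap as a covariate only srw-85 kept this call, and with the replicate number as a block all 17 did. That gap separates the arrays of the mutants, so its part and that of genotype cannot be told apart. The largest were srw-85 at -4.90 ± 0.12 (adjusted p = 4.16e-08), shc-1 at 2.92 ± 0.19 (limma adjusted p = 1.15e-04), ugt-13 at 1.75 ± 0.19 (0.00259), K08E7.5 at 1.73 ± 0.14 (3.86e-04) and prg-1 at -1.63 ± 0.12 (1.92e-04). Among sugar genes, tre-2 stood at 1.19 ± 0.11 (limma adjusted p = 5.87e-04) and hxk-1 at 0.85 ± 0.10 (0.00289). The deleted genes differed by 0.78 ± 0.17 and 0.78 ± 0.11 at the probe sets of ogt-1 and by 0.66 ± 0.11 and 0.86 ± 0.10 at 2 of 3 probe sets of oga-1 (limma adjusted p between 0.00402 and 0.0418). The other probe set of oga-1 differed by 0.40 ± 0.11 and was not called (limma adjusted p = 0.09).

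Smaller differences, all with the oga-1 mutant higher, were found in cth-1, an enzyme of cysteine synthesis (-0.73 ± 0.13, limma adjusted p = 0.0235), and sdha-2, a subunit of succinate dehydrogenase (-0.67 ± 0.12, 0.0237). The fatty acid elongase gene elo-4 stood at -0.61 ± 0.08 (limma adjusted p = 0.00491), the collagen col-180 at -0.51 ± 0.10 (0.0312), the glutathione S-transferase gst-22 at -0.44 ± 0.10 (0.0438) and the chemoreceptor srd-27 at -0.36 ± 0.07 (0.0343). Of these 6, only srd-27 was called in the mutant average against wild type.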

How the results depend on the processing

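Calls in the average numbered 151 (97 higher, 54 lower, 110 not called different between mutants), with 652 between the mutants. Leaving out 1 array gave 40 to 171 (32 to 104 higher, 8 to 67 lower, 27 to 116 not different) and 255 to 803 between mutants. The 2-group model gave 49 (38 and 11). Array weights gave 553 (298 and 255, 452 not different). The control gap covariate gave 88 (63 and 25) and 9 between mutants. Without the arrays that stood apart there were 69 (45 and 24, 52 not different) and 188. The replicate block gave 331 (185 and 146, 228 not different) and 1128. All 9 arrays correlated best with their own number in their deviations, and 7 of all 9 same-number pairs correlated above 0.1. Same-number pairs with wild type ran from 0.10 to 0.30 for the ogt-1 arrays and from 0.01 to 0.21 for the oga-1 arrays. Other pairs with wild type ran from -0.24 to 0.03 and from -0.21 to 0.04, so some deviation was shared by number there too. The other 5 settings gave 156 to 180 calls. The causes were not tested, beyond the smaller number of arrays where some were left out.

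Of 41 named called genes none changed sign under any alternative; 18 kept the call without wild type 2, 23 in the 2-group model and 28 with the covariate. Uncalled values changed sign: npr-1 (0.05 with array weights, 0.12 without the arrays that stood apart, -0.23 to 0.12 leaving out 1 array), nath-10 (-0.00 with the covariate, -0.06 to 0.11), zeel-1 (-0.04) and nurf-1 (-0.01) without the arrays that stood apart, an ogt-1 probe set (-0.01 to 0.18), and the actin (-0.069 to 0.041) and GAPDH (-0.00899 to 0.0775) 3-prime gaps. Without detection calls, dim genes have no stated floor.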

Other observations

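Other called genes, picked after their values were seen, fell into no list. Both probe sets of glb-11, a globin, rose, by 0.66 ± 0.10 and 0.77 ± 0.12 (limma adjusted p = 0.0185 and 0.0248), and were higher on all 6 mutant arrays. clp-4, a calpain protease, rose by 0.80 ± 0.10, and jmjd-3.1, a histone lysine demethylase, by 0.56 ± 0.09, both at marked probe sets. argn-1, an arginase, rose by 0.88 ± 0.15, also at a marked probe set. Of 25 bestrophin genes, a family of chloride channels, best-24 and best-1 rose by 0.75 ± 0.13 and 0.76 ± 0.14, beside 0.485% of all genes called higher. The calls of argn-1, best-24 and best-1 were each lost without 7 of the 9 arrays, wild type 2 among them (limma adjusted p = 0.192, 0.188 and 0.264). Without wild type 2 those of glb-11 (0.0659 and 0.114), clp-4 (0.0541) and jmjd-3.1 (0.121) were lost too.

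Of 4 subunits of the translocon-associated complex of the endoplasmic reticulum, trap-3 and trap-1 were called lower at marked probe sets, by -0.47 ± 0.07 and -0.45 ± 0.08 (limma adjusted p = 0.0245 and 0.0403). The brighter probe set of trap-3 changed by -0.34 ± 0.09 and was not called (limma adjusted p = 0.165), so by the brightest probe set 1 of the 4 genes fell, beside 0.286% of all genes. Both called probe sets read lower on all 6 mutant arrays than in wild type. Leaving out 1 array ended the call of trap-3 for 6 arrays and that of trap-1 for 8. None of 22 genes of the unfolded protein response of the endoplasmic reticulum was called, and their median was -0.07.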
